A study of Mus musculus with 8 samples.

Results

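The mitochondrial respiratory chain was examined here through 37 of its nuclear-encoded subunits in mouse white adipose tissue: 18 genes of complex I, 4 of complex II, 4 of complex III, 6 of complex IV and 5 of complex V. The genes were listed by symbol, and their probes were found by matching the transcript accession of each array probe to a RefSeq symbol. All 37 were measured, among 25141 gene names tested, and all 37 were above background in both colours on each of the 4 arrays. There were 42 probes, 1 each for 32 genes and 2 each for the other 5, and the brightest probe stood for its gene.

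The study compared 4 samples of white adipose tissue from wild-type (WT) mice with 4 from Ad/NICD mice, which overexpress the intracellular domain of Notch1, the part of the receptor that enters the nucleus and turns on Notch target genes. All were 5 weeks old, of strain 129 × C57BL/6 and on a regular chow diet. The sources used here do not give the transgene's promoter, the fat depot, the sex or whether RNA was pooled from several animals. Each 2-colour array held 1 WT and 1 Ad/NICD sample of the same replicate number, since the scanner tables of same-numbered samples were identical. A level below is the log2 of 1 colour's normalised intensity, and a log2 ratio is Ad/NICD minus WT within an array, so that -1 would be a halving. Levels of different genes are not set against each other, because each probe has its own brightness.

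The direction of every ratio is the likely one. The labelling protocol puts control samples in green (Cy3) and test samples in red (Cy5), and the authors' value table carries green under WT and red under Ad/NICD, whereas the dye tags of the samples give the opposite. With those tags every sign below would turn, and the level of a WT sample would belong to the Ad/NICD sample of the same number. No array had the dyes swapped, so a dye effect cannot be told apart from one of genotype. The median signal before correction was 72 to 88.5 units in green over a background of 45 to 46, and 34 to 43.5 in red over 19 to 20, with 58.1% to 68.6% of probes above background in each colour; the number of arrays limits the precision. Levels of Xist, the RNA that silences an X chromosome in females, were 6.12 and 5.87 in the replicate 4 samples and 10.15 to 10.45 in the other 6.

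The respiratory chain sits in the inner mitochondrial membrane. Complex I takes electrons from NADH and complex II from succinate, coenzyme Q carries them to complex III, cytochrome c carries them on to complex IV, and oxygen receives them. Complexes I, III and IV pump protons, and complex V, the ATP synthase, lets them flow back to make ATP. White fat cells hold fewer mitochondria than brown ones, in which the uncoupling protein UCP1 releases the proton gradient as heat. Most subunits are encoded in the nucleus, and transcription factors including NRF1, GABPA, ESRRA and YY1, with the coactivator PGC-1alpha (Ppargc1a), are known to drive many of these genes.

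The promoters of 5 members, 1 from each complex, are shown because shared promoter motifs are a known feature of this family. A role of such motifs in the ratios was not tested. They are the 250 bases before the transcription start in RefSeq (GRCm38.p6), 5′ to 3′ on the gene's strand, with matches to the searched motifs in capitals. Each is the gene of its complex with the lowest unadjusted p among those with 1 promoter entry and no other gene in the window. Sdhb lies at chr4:140961021-140961270 on the plus strand. On the minus strand lie Ndufs8 at chr19:3912775-3913024, Uqcrfs1 at chr13:30545317-30545566, Cox6a1 at chr5:115348959-115349208 and Atp5o at chr16:91931631-91931880.
Ndufs8: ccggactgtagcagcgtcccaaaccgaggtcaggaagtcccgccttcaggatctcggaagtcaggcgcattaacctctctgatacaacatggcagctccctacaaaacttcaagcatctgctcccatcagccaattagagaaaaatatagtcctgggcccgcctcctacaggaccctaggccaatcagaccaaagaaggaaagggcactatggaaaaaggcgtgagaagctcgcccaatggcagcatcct
Sdhb: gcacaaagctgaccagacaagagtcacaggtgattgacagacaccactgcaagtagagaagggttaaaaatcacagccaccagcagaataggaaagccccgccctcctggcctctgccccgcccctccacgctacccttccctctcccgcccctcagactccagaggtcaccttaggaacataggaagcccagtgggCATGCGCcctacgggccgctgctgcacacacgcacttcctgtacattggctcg
Uqcrfs1: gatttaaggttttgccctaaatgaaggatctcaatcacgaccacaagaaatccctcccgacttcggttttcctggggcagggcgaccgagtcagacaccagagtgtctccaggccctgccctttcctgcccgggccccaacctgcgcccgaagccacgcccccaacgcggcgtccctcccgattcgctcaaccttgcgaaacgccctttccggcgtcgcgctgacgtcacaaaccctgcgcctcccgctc
Cox6a1: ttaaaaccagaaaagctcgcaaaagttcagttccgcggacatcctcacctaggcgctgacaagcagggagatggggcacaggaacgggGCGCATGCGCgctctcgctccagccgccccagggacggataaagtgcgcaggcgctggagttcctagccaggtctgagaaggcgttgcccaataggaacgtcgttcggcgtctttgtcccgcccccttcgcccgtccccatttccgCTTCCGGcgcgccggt
Atp5o: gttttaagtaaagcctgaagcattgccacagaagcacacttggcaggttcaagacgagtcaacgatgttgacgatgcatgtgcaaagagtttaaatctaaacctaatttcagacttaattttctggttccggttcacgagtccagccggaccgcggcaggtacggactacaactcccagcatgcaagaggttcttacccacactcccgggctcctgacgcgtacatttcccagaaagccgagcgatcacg

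The capitals in Sdhb are the reverse complement of GCGCATG, the NRF1 core, starting 53 bases before the start of transcription. In Cox6a1 the first capitals hold that core on both strands, overlapping, and the second capitals, 16 bases before the start, are the reverse complement of CCGGAAG, the core of GABPA and other ETS factors. The windows of Ndufs8, Uqcrfs1 and Atp5o hold none of the searched motifs. Matches of Ndufs8 and Sdhb to CCGGAAG and of Cox6a1 to GATGGCG lie after the start and are not shown. RefSeq listed 31 promoters for 28 of the 37 members, and each was searched on both strands over 300 bases, from 250 before to 50 after the start. GCGCATG was in 6 of the 31 (19.4%), against 3.91% of all 32851 promoters, and GATGGCG, the YY1 core, was in 4 (12.9%), against 3.49%. CCGGAAG was in 6 (19.4%), against 8.86%, and AAGGTCA, the ESRRA core, was in 1 (3.23%), against 4.72%. At least 1 of these motifs was in 12 of the 31 (38.7%), against 18.9% of all promoters. The median log2 ratio was -0.06 over the 6 genes with the NRF1 core and -0.15 over the other genes with a promoter entry. It was -0.11 with the YY1 core against -0.15 without, and -0.18 with CCGGAAG against -0.13 without. The 1 gene with the ESRRA core had -0.27, against -0.13 without. A match is a run of letters, and binding was not measured.

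No subunit passed the test between Ad/NICD and WT. Limma tested whether the mean of the 4 ratios differed from 0, with Benjamini-Hochberg adjustment over all 25141 gene names and a threshold of 0.05, and 0 of 37 members passed, beside 12 of all genes (0.0477%). The smallest adjusted p among the members was 0.257, and 1 member had an unadjusted p under 0.05, as did 15.2% of all genes. With the 2 colours fitted separately and the array as a random block, limma called 500 genes (1.99%), and without the block 258 (1.03%); again 0 of 37 members passed, with smallest adjusted p of 0.102 and 0.139. The 95% interval of the ratio included 0 for 36 of 37 members, and over all members the interval bounds lay between -0.87 and 0.73. The mean ratio was below 0 for 28 of 37 members (75.7%), with a median of -0.13, beside 51.6% of all genes and a median of -0.0059.

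The sign of the ratios differed between arrays, and most members lay on the same side of 0 on 3 of them. The median over the 37 members was 0.34 for the replicate 1 array, -0.66 on that of replicate 2, -0.15 on that of replicate 3 and 0.02 on that of replicate 4. On replicate 1, 2 members were below 0, on replicate 2 all 37, on replicate 3 32 and on replicate 4 16, where 54.1%, 52.3%, 51.2% and 48.6% of all genes were below 0. Within an array the members lay close together, with an SD among them of 0.16 to 0.23, beside 0.32 to 0.42 over all genes. All genes include dimmer probes than those of the members, so these SDs are not matched for brightness. The members' median moved over a range of 1.01 between arrays. The same 35 members were above 0 on replicate 1 and below 0 on replicate 2, a pattern shown by 19.5% of all genes. Only 1 member, Atp5c1, had the same sign on all 4 arrays, beside 24.5% of all genes, and Atp5c1 was also the only member whose WT and Ad/NICD levels did not overlap, beside 9.8% of all genes.

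**Figure D1:**
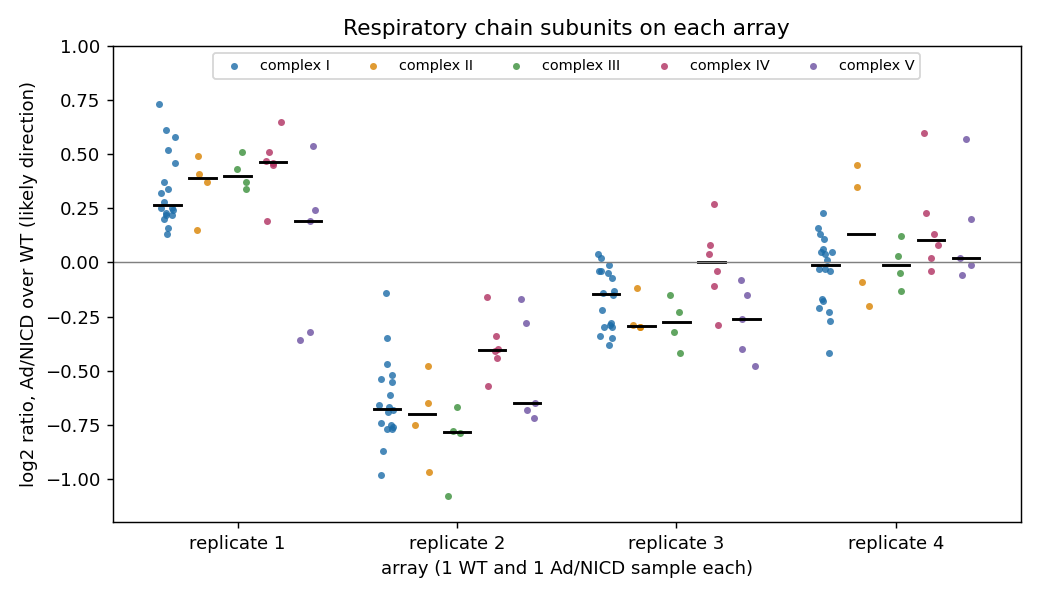
Log2 ratio (Ad/NICD minus WT, vertical axis) of each of the 37 subunits on the arrays of replicates 1 to 4, with 1 point per gene coloured by complex and a bar at each complex's median. The members sit mostly above 0 on replicate 1 (median 0.34), all below 0 on replicate 2 (median -0.66), and nearer 0 on replicates 3 and 4 (medians -0.15 and 0.02).

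The levels in single samples place this spread. WT 2 was the highest of the 8 samples for 34 of 37 members, beside 20.4% of all genes, and Ad/NICD 1 was the highest for the other 3 (Ndufa2, Cox6a1 and Atp5b). Ad/NICD 3 was the lowest sample for 19 members, beside 14.7% of all genes, and WT 1 for 12, beside 8.58% of all genes. After centring each gene on its mean over the 8 samples, the members' median was -0.26, 0.53, -0.12 and 0.04 in WT 1 to 4, and 0.10, -0.09, -0.29 and 0.07 in Ad/NICD 1 to 4. The SD was larger in WT than in Ad/NICD for 35 of 37 members, with a median of 0.36 against 0.19, where 51.2% of all genes had the larger SD in WT. Without replicate 2 the WT SD was the larger for 11 members. These are tissue samples, in which fewer cells of a type and less RNA per cell cannot be told apart.

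**Figure D2:**
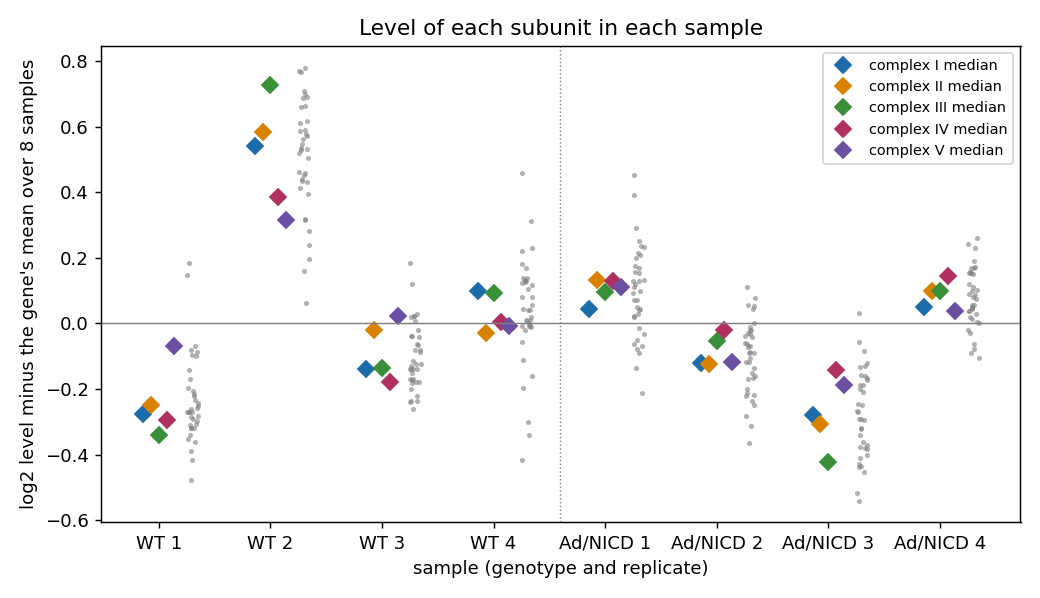
Log2 level of the subunits in each of the 8 samples, centred on each gene's mean over the samples, with a grey point per gene and a coloured diamond for the median of each complex. WT 2 stands highest (median 0.53), and Ad/NICD 3 (median -0.29) and WT 1 (median -0.26) stand lowest.

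In complex I, NADH dehydrogenase, 16 of the 18 subunits were below 0 and none passed the test, and the median log2 ratio was -0.15. Its array medians were 0.26, -0.68, -0.15 and -0.01 for replicates 1 to 4. Ndufb3, a small subunit of the membrane arm, had the lowest unadjusted p of the complex. Its level was 13.28, 14.06, 13.33 and 13.97 in WT 1 to 4, and 13.50, 13.30, 13.11 and 13.55 in Ad/NICD 1 to 4. The groups overlapped, with WT 2 and WT 4 above the other 6 samples. WT samples averaged 13.66 ± 0.41 and Ad/NICD samples 13.36 ± 0.20 (SD, n = 4), and the ratio was -0.30 ± 0.16 (SE; 95% interval -0.71 to 0.12; limma adjusted p = 0.455).

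Ndufs1, the largest subunit, carries iron-sulfur clusters that pass electrons from NADH onward. Its level was 13.06, 14.03, 13.24 and 13.49 in WT 1 to 4, and 13.25, 13.25, 12.94 and 13.30 in Ad/NICD 1 to 4. WT 2 was the highest sample and Ad/NICD 3 the lowest, and the groups overlapped. The ratio was -0.27 ± 0.16 (SE; 95% interval -0.67 to 0.14; limma adjusted p = 0.495). By array it was 0.20, -0.77, -0.30 and -0.18.

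The other 3 members of the NADH-oxidising tip of complex I were Ndufv1, which binds NADH and flavin, with a mean ratio of -0.11, Ndufv2, an iron-sulfur subunit, with -0.09, and Ndufa2, with 0.13. In the arm that hands electrons to coenzyme Q, Ndufs8 and Ndufs7, which hold the last iron-sulfur clusters, had mean ratios of -0.26 and -0.13. Ndufs3 had -0.19 and Ndufa5 -0.14 in the same arm. Of the subunits of the membrane arm, Ndufa10 had -0.23, Ndufb5 -0.21, Ndufb9 -0.20, Ndufa8 -0.15, Ndufb10 -0.03, Ndufa1 -0.01 and Ndufb8 0.10. Ndufa9, which lies near the quinone site, had -0.09. Ndufa4, with -0.16, carries a complex I name but is found biochemically with complex IV. The medians of the NADH tip, the quinone arm and the membrane arm were -0.10, -0.17 and -0.18; this division was made after the values were seen.

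Complex II, succinate dehydrogenase, is the only chain complex that is also an enzyme of the tricarboxylic acid cycle, and all of its subunits are nuclear-encoded. Its median was -0.12, with array medians of 0.39, -0.70, -0.29 and 0.13. Sdhd, a membrane anchor, was at 13.55, 14.49, 13.73 and 13.93 in WT 1 to 4 and at 13.96, 13.51, 13.43 and 13.73 in Ad/NICD 1 to 4. WT 2 was again the highest, and the other 7 samples of Sdhd were mixed between the groups. The ratio was -0.27 ± 0.22 (SE; 95% interval -0.82 to 0.29; limma adjusted p = 0.624), with -0.97 on the array of replicate 2.

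Sdhc, the other anchor, was at 12.86, 13.71, 12.93 and 13.27 in WT 1 to 4 and at 13.23, 13.06, 12.81 and 13.18 in Ad/NICD 1 to 4. The groups overlapped, and its ratio was -0.12 ± 0.17 (SE; limma adjusted p = 0.776). Sdha, the flavoprotein that oxidises succinate, had a mean ratio of -0.11. Sdhb, the iron-sulfur subunit, was the only gene whose 2 probes disagreed in sign, at 0.02 for the brighter and -0.37 for the dimmer. Both Sdhb probes were lowest on replicate 2, at -0.48 and -0.93.

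Complex III, the cytochrome bc1 complex, had a median of -0.15, with all 4 members below 0 on average and array medians of 0.40, -0.78, -0.27 and -0.01. Uqcrfs1, the Rieske iron-sulfur protein that takes electrons from ubiquinol, was at 13.05, 14.03, 13.15 and 13.37 in WT 1 to 4. In Ad/NICD 1 to 4 it was at 13.42, 12.95, 12.83 and 13.31. The groups overlapped. Its ratios of 0.37 on replicate 1 and -1.08 on replicate 2 were 1.46 apart before rounding, the widest spread of the 37 members. The mean ratio was -0.27 ± 0.24 (SE; 95% interval -0.87 to 0.33; limma adjusted p = 0.643).

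Cyc1, cytochrome c1, passes electrons to cytochrome c. It was at 13.67, 14.83, 13.93 and 14.14 in WT 1 to 4 and at 14.18, 14.04, 13.52 and 14.17 in Ad/NICD 1 to 4, with WT 2 highest and Ad/NICD 3 lowest. The ratio was -0.16 ± 0.22 (SE; limma adjusted p = 0.768). The core proteins Uqcrc1 and Uqcrc2 both had a mean ratio of -0.13.

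Cytochrome c oxidase, complex IV, was the only complex whose median lay above 0, at 0.05; 1 of its 6 subunits was below 0. The median was -0.02 with Agilent's processed signals, -0.04 in the authors' value table and -0.09 without replicate 1. It was -0.20 with median centring in place of loess, a setting that moved the median of all genes to -0.319, and 0.12 relative to that. The array medians were 0.47, -0.40, 0.00 and 0.11, so the order of the arrays was that of the other complexes. A difference between complexes was not tested.

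Cox6a1, the form of subunit 6a found outside muscle, had the highest mean ratio of the 37. Its level was 15.70, 16.13, 15.73 and 15.63 in WT 1 to 4, and 16.36, 15.97, 16.00 and 16.23 in Ad/NICD 1 to 4. All Ad/NICD samples lay above WT 1, WT 3 and WT 4, and WT 2 lay among them. The means were 15.80 ± 0.22 and 16.14 ± 0.19 (SD, n = 4), with a ratio of 0.34 ± 0.15 (SE; 95% interval -0.04 to 0.73; limma adjusted p = 0.377). The ratio was above 0 on 3 of 4 arrays.

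Cox5b, a matrix-side subunit, was at 13.68, 14.48, 13.81 and 14.18 in WT 1 to 4 and at 13.87, 13.91, 13.52 and 14.14 in Ad/NICD 1 to 4. The groups overlapped, and the ratio was -0.18 ± 0.14 (SE; limma adjusted p = 0.593). The remaining members stayed near 0, with mean ratios of 0.02 for Cox4i1, the ubiquitous form of subunit 4, 0.08 for Cox5a and Cox7b and 0.01 for Cox6c.

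The ATP synthase, complex V, had 4 of its 5 subunits below 0, a median of -0.17 and array medians of 0.19, -0.65, -0.26 and 0.02. It held the 2 members that were below 0 on replicate 1, Atp5c1 and Atp5j. Atp5c1 encodes the gamma subunit, the shaft that turns inside the catalytic head. Its level was 13.62, 13.75, 13.62 and 13.49 in WT 1 to 4, and 13.30, 13.07, 13.14 and 13.49 in Ad/NICD 1 to 4. Every WT sample was at or above every Ad/NICD sample, the WT 4 and Ad/NICD 4 levels being alike to 2 decimals. The means were 13.62 ± 0.10 and 13.25 ± 0.19 (SD, n = 4).

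The Atp5c1 ratio was -0.37 ± 0.12 (SE; 95% interval -0.68 to -0.07), or 0.772 of the WT level. Its values were -0.32, -0.68, -0.48 and -0.01 on the 4 arrays, and the dimmer probe had a mean of -0.47. The adjusted p of limma was 0.257, and 0.102 with the array as a random block, so the gene did not pass. Atp5j, coupling factor 6 of the outer stalk, was at 13.28, 13.37, 13.25 and 12.97 in WT 1 to 4 and at 12.92, 13.09, 13.00 and 13.17 in Ad/NICD 1 to 4. Its ratio was below 0 on 3 arrays and 0.20 on replicate 4, with a mean of -0.17 ± 0.11 (SE; limma adjusted p = 0.517).

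Atp5o, which holds the outer stalk to the head, had a mean ratio of -0.24. Of the catalytic head, Atp5a1 (alpha) had -0.15, near the stalk subunits, and Atp5b (beta) had 0.22. The median was 0.03 for this pair and -0.24 for the 3 stalk subunits, a division made after the values were seen and with no test.

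**Figure D3:**
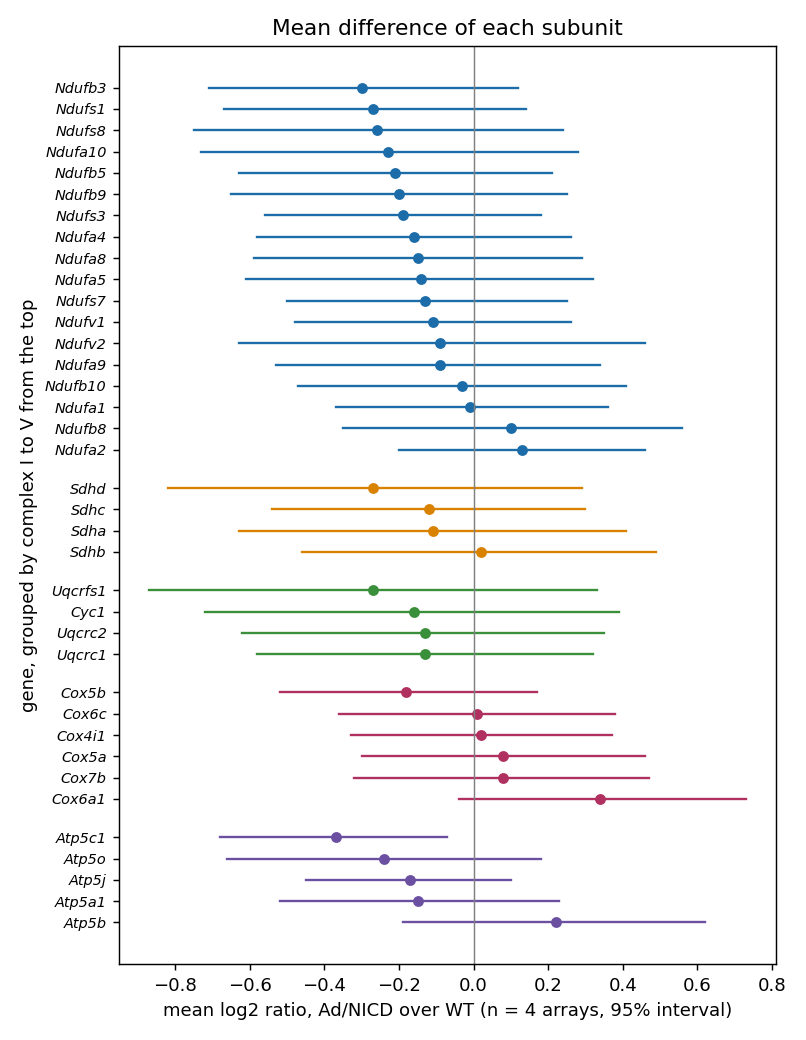
Mean log2 ratio (Ad/NICD minus WT, n = 4 arrays) of each of the 37 subunits, grouped by complex, with bars for the 95% interval. The interval crosses 0 for 36 genes; Atp5c1, at -0.37 (-0.68 to -0.07), is the exception, and Cox6a1 is the highest at 0.34.

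The sign of the list's median turned without replicate 2 and did not turn without replicate 1, 3 or 4. Without replicate 1 the members' median ratio was -0.29, with 35 of 37 below 0, and without replicate 2 it was 0.03, with 13 below 0. Complex I moved from -0.32 without replicate 1 to 0.02 without replicate 2, complex III from -0.35 to 0.05, complex II from -0.24 to 0.08 and complex IV from -0.09 to 0.19. Complex V stayed below 0, at -0.26 and -0.07. Without replicates 3 or 4 the median over all members was -0.12 or -0.19. Median centring in place of loess moved the median of all genes to -0.319, with 81% of them below 0, and that of the members to -0.47, which is -0.15 relative to all genes.

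None of the related mitochondrial lists held a gene called by the ratio test. Among 39 other nuclear subunits, 27 were below 0 and 0 passed, with a median of -0.05 and array medians of 0.28, -0.49, -0.11 and 0.04. Ndufa7, an accessory subunit of complex I, had a mean ratio of -0.29 ± 0.092 (SE; limma adjusted p = 0.256). Of 38 assembly factors, 35 were measured, 26 were below 0 and 0 passed, with a median of -0.11. Ndufaf7 and Ndufaf3, both for complex I, had the lowest unadjusted p, at -0.31 ± 0.095 and -0.26 ± 0.085 (SE). The 13 subunits encoded in mitochondrial DNA were looked up, but none matched a gene name tested, so they were not measured here.

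Of 8 tissue-specific isoforms of subunits, 6 were measured, 4 were above 0 and 0 passed, with a median of 0.18. Ndufa4l2, a hypoxia-induced relative of Ndufa4, was above 0 on all 4 arrays, at 0.07, 0.46, 0.40 and 0.51, with a mean of 0.36 ± 0.093 (SE; limma adjusted p = 0.196). Cox4i2, the alternative form of subunit 4, had 0.11 ± 0.065 (SE). Cox7a1, a form found in muscle and brown fat, had ratios of 2.04, -0.68, 0.50 and 0.05 for replicates 1 to 4. Cox8b, of the same kind, had 1.46, -0.64, 0.01 and 0.17, so both were highest on replicate 1 and lowest on replicate 2. Cox6a2, the heart and skeletal muscle form, had 0.76, -0.56, -0.08 and -2.62.

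Among 8 genes that feed or carry electrons, all 8 had a mean ratio below 0, beside 51.6% of all genes, and 0 passed the ratio test. Their median was -0.22, and -0.06 without replicate 2. The array medians were 0.37, -0.78, -0.28 and 0.02, so the sign differed between arrays. Sqor, which oxidises hydrogen sulfide and passes its electrons to coenzyme Q, was at 12.39, 11.83 and 12.31 in WT 1 to 3 and at 10.67, 11.00, 11.05 and 10.76 in Ad/NICD 1 to 4. WT 4 was the lowest of the WT samples but above all Ad/NICD samples, so the groups did not overlap. Its ratio was -1.14 ± 0.18 (SE; limma adjusted p = 0.129), and its adjusted p was 0.0264 in limma with the array as a random block and 0.0441 without the block. Dhodh, a pyrimidine synthesis enzyme that also reduces coenzyme Q, had -0.19 ± 0.099 (SE; limma adjusted p = 0.429).

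The 13 tricarboxylic acid cycle genes followed the same arrays, with medians of 0.50, -0.66, -0.17 and 0.12 and a median of -0.07 over the mean ratios. Of these, 8 were below 0 and 0 passed. Dld, the shared dihydrolipoamide dehydrogenase, had -0.52 ± 0.25 and Idh3b, of isocitrate dehydrogenase, -0.34 ± 0.17 (SE). Of 15 regulators of mitochondrial biogenesis, 8 were below 0 and 0 passed, with a median of -0.06. Nrf1, the factor whose core motif was searched above, had 0.25 ± 0.080 (SE; limma adjusted p = 0.256), and Polg, the mitochondrial DNA polymerase, had -0.17 ± 0.061 (SE; limma adjusted p = 0.299). Ppargc1a had 0.55, -0.27, -0.15 and 0.86 on the 4 arrays.

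Of 14 transport and import genes, 8 were below 0 and 0 passed, with a median of -0.08. Timm23, the channel of the inner-membrane import machinery, had -0.40 ± 0.14, and Slc25a5, an ADP/ATP carrier, -0.36 ± 0.12 (SE; limma adjusted p of 0.282 and 0.256). Among 4 genes for uncoupling proteins and the ATP synthase inhibitor, 3 were below 0 and 0 passed. The inhibitor Atpif1 had 0.26 ± 0.18 (SE) and Ucp2 -0.10 ± 0.10 (SE).

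By their median, markers of brown and beige fat stood high and low in the same samples as the subunits. All 8 markers were measured, and 4 of them (Cox7a1, Cox8b, Ppargc1a and Ucp1) are also in the lists above. All 8 were above 0 on replicate 1 and below 0 on replicate 2, with array medians of 0.90, -1.24, -0.13 and 0.11, and a median of -0.02 over the mean ratios. Their median centred level was -0.61, 1.16, -0.39 and 0.07 in WT 1 to 4, and 0.36, -0.28, -0.58 and 0.32 in Ad/NICD 1 to 4. By this median WT 2 was highest, and WT 1 and Ad/NICD 3 lowest, as for the subunits. The mean ratio was below 0 for 4 markers and above 0 for 4. Elovl3 and Dio2 had the lowest unadjusted p, with mean ratios of -1.22 ± 0.53 and -1.08 ± 0.55 (SE). Elovl3 was at 7.74 in WT 1 and 6.43 in Ad/NICD 3, and Dio2 at 8.73 and 7.77, so neither was at its lowest in WT 1. Ucp1, the defining brown-fat gene, was at 12.23, 15.17, 13.03 and 13.45 in WT 1 to 4 and at 14.65, 12.50, 12.57 and 13.90 in Ad/NICD 1 to 4. Its ratios were 2.42, -2.67, -0.46 and 0.45, with a mean of -0.07 ± 0.80 (SE; limma adjusted p = 0.978). The part of brown or beige fat in the subunit values was not tested.

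**Figure D4:**
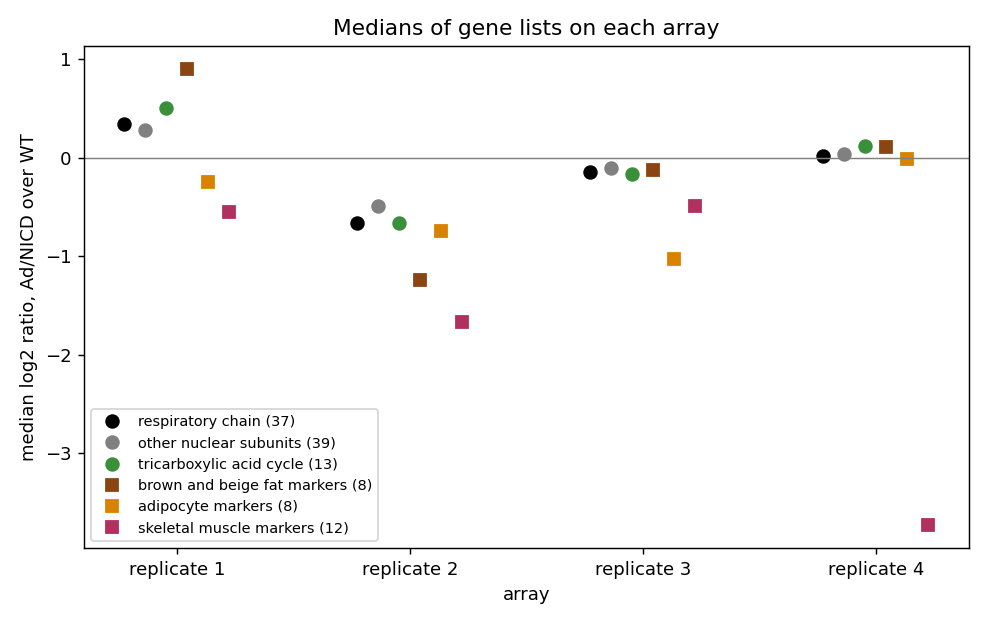
Median log2 ratio (Ad/NICD minus WT) on each of the 4 arrays for the 37 subunits, for related mitochondrial lists and for cell type markers, with 1 point per array. The subunits (0.34, -0.66, -0.15 and 0.02), the tricarboxylic acid cycle genes (0.50, -0.66, -0.17 and 0.12) and the brown and beige markers (0.90, -1.24, -0.13 and 0.11) share the order replicate 1, 4, 3, 2 from highest to lowest.

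By their array medians, the other cell type lists did not share the subunits' order of arrays. Single markers could share it, as did the adipocyte marker Fabp4, at 0.53, -0.28, -0.10 and 0.37. The 8 adipocyte markers had array medians of -0.25, -0.75, -1.03 and -0.01 and a median of -0.56. They were split, with 5 below 0, among them Adipoq, the fat cell hormone adiponectin, at -0.95 on average. The 3 above 0 were Lep at 0.19, Fabp4 at 0.13 and Pparg at 0.09. The 12 skeletal muscle markers were all below 0, with array medians of -0.55, -1.67, -0.49 and -3.73. In WT 1 to 4 their median centred level was -0.72, 0.89, -0.67 and 4.26. In Ad/NICD 1 to 4 it was -1.13, -1.05, -1.23 and 0.30. WT 4 was highest, where the subunits' median was 0.04. WT 2, where the subunits' median was highest at 0.53, came next. Endothelial markers (6 of 6 measured) had a median of -0.31, erythroid (4 of 4) -0.71, mammary epithelium (5 of 5) -0.51, macrophage (6 of 6) 0.23, progenitor (5 of 5) 0.21 and heart muscle (2 of 4) 0.06. The mammary markers had array medians of -1.11, -1.33, 0.24 and 0.01. Their median centred level was -3.21 in both WT 4 and Ad/NICD 4. Cldn5, an endothelial junction gene, had a mean ratio of -1.21 ± 0.14 (SE; limma adjusted p = 0.114). Its adjusted p in limma was 0.0311 with the array as a random block and 0.0589 without the block, so it passed in 1 of these 3 fits. The part of these cell types in the subunit values was not tested.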

How the data were processed

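RNA of 8 samples was hybridised to 4 Agilent 2-colour arrays and read with Feature Extraction 11.5, per the submitters' processing notes. The deposited scanner tables hold intensities on a linear scale for both colours, and a log10 ratio, not used here, per the file headers. The deposited value table holds log2 intensities, with column medians of -3.84 to -3.52, so its centring is unstated. Median spot signals were corrected by normexp (offset 50) and loess within arrays in limma 3.58.1 (R 4.3.3). Levels came from the separate colours after Aquantile scaling. Of 55681 probes that are not controls, 28020 were named through RefSeq accessions and 27661 kept the file's name. The 34468 kept were above background in at least 1 colour on at least 3 of 4 arrays, and the brightest probe stood for each of 25141 gene names. The array of replicate 1 lacked the scanner's background calls, so rebuilt calls were used there (signal above 6 median absolute deviations of the negative controls). The other arrays kept the scanner's calls. Calls rebuilt on those arrays as a check matched the scanner's for 98.3% to 100% of probes. The fit was tested on simulated data. Levels in 8 samples were printed for the 2 lowest unadjusted p and the largest mean ratio of each complex; other lists name the 2 lowest unadjusted p and any call. A gene that this rule names is not reported here. The members and lists were chosen with earlier results of these data known. Pairing comes from the array: correlations of same-numbered deviations were 0.18, 0.17, 0.56 and 0.53, and the largest with another number were 0.28, 0.14, 0.28 and -0.018. The labels call the samples biological replicates. Alternatives changed the background, scaling, filter, probe choice, block and replicates.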

Additional observations from a re-analysis of the deposited data

Results flagged for a closer look

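Dixon's ratio is the gap between an end value and the nearest of the others, divided by the range of the group. Among 117 groups of 4 values examined, this ratio passed its critical value at the 95% level in 4. Chance would give about 5% of groups, so the count was no larger than chance would give. In WT, replicate 2 stood above the others for Atp5a1, at 14.13 against 13.65 to 13.71, and for Atp5o, at 12.95 against 12.25 to 12.33. In Ad/NICD, replicate 3 stood below the others for Ndufs1, at 12.94 against 13.25 to 13.30, and for Ndufv1, at 13.68 against 14.10 to 14.13. All are log2 levels. These samples are the ones in which most members were at their highest and lowest.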

How the results depend on the processing

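No setting called any of the 37 members, and the complexes' medians are given with the results. Over all genes, against 12 called, limma called 258 with separate channels and no replicate block, 500 with the array as a random replicate block, 0 with a trended, robust eBayes, 3 with Agilent's processed signals, 0 with median centring, 3 from the authors' value table and 0 with no filter on dim probes; leaving out 1 replicate gave 0 to 43. The block changed no member's call. The sign of a mean ratio turned for 8 members with median centring (Ndufa2 -0.14, Ndufb8 -0.13, Sdhb -0.29, Cox4i1 -0.15, Cox5a -0.17, Cox6c -0.30, Cox7b -0.24, Atp5b -0.03), all above the all-gene median of -0.319 under that setting, for 5 with processed signals (Sdhb -0.06, Uqcrc1 0.00, Cox4i1 -0.18, Cox5a -0.04, Cox6c -0.01), for 5 in the authors' table (Sdhb -0.07, Cox4i1 -0.20, Cox5a -0.05, Cox6c -0.03, Cox7b -0.00), for 3 with a normexp offset of 10 (Sdhb -0.00, Cox4i1 -0.04, Cox6c -0.01) and for Sdhb (-0.18) with the mean of its probes. The cause of the other turns was not tested. Leaving out replicate 1, 2, 3 or 4 turned the sign of 7, 15, 1 and 2 members. The ranges were -0.12 to 0.15 for Ndufa1, -0.02 to 0.22 for Ndufa2, -0.32 to 0.01 for Ndufa4, -0.34 to 0.03 for Ndufa5, -0.32 to 0.03 for Ndufa8, -0.20 to 0.10 for Ndufa9, -0.11 to 0.25 for Ndufb8, -0.21 to 0.15 for Ndufb10, -0.26 to 0.01 for Ndufs7, -0.23 to 0.03 for Ndufv1 and -0.32 to 0.13 for Ndufv2. They were -0.30 to 0.10 for Sdha, -0.14 to 0.18 for Sdhb, -0.29 to 0.05 for Sdhc, -0.32 to 0.05 for Uqcrc1, -0.29 to 0.08 for Uqcrc2, -0.39 to 0.04 for Cyc1, -0.12 to 0.14 for Cox4i1, -0.06 to 0.24 for Cox5a, -0.14 to 0.15 for Cox6c, -0.06 to 0.25 for Cox7b and -0.26 to 0.02 for Atp5a1. All members were above background in both colours on all 4 arrays.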
